A study of Drosophila melanogaster with 4 samples.

Results

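The 7 TBP peaks that overlap the stretch of chromosome arm 2L holding the Snail family genes escargot (esg), worniu (wor) and snail (sna) are described here. The stretch, called the span below, runs from 15.325 Mb to 15.49 Mb on FlyBase release 5, and a peak was counted when any base of it fell inside. The deposited list held 7769 peaks in all, 1349 of them on 2L. TATA-binding protein (TBP), the subunit of TFIID that contacts promoter DNA, had been mapped by chromatin immunoprecipitation and sequencing in whole Drosophila melanogaster embryos.

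The series has 2 libraries of TBP ChIP DNA and 2 libraries of input DNA, and both groups are labelled as embryos of 0 to 8 h from the strain Exd-GFP-13T. Their genotype is given as w; PBac{y[+]-attP-3B}VK00033, with a transgene that carries the genomic copy of exd (extradenticle, a homeodomain gene) fused to GFP, so every library shares it. The sex of the embryos is unknown, and the ChIP used a crude rabbit polyclonal antiserum against Drosophila TBP. The extraction text, however, has eggs collected at 8 to 16 h from other flies, y; bw cn sp, and this conflict is unresolved. One list of peaks stood for all 4 libraries, so no peak has a value per library, a replicate error or a test, and read depth is unknown. Because whole embryos were used, binding in few cells and weak binding in many cannot be told apart.

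Snail family proteins are zinc finger transcription factors, best known as repressors that bind E-box sequences. In the fly embryo, sna is switched on in the future mesoderm, where it keeps ectodermal genes silent and is needed for gastrulation. The gene wor acts in neuroblasts, the stem cells of the nervous system, and esg keeps imaginal cells diploid and later maintains stem cells of the gut and testis. The 3 genes also overlap in function in the embryonic nervous system. TBP marks sites where RNA polymerase II initiation complexes assemble, usually at promoters. In many eukaryotes TBP also takes part in transcription by RNA polymerases I and III.

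In the RefSeq gene table, which belongs to release 6, the 3 genes follow each other along 2L in the order esg, wor, sna. Between esg and wor the table lists 7 genes, of which 2 code for protein (CG15258 and CG44869) and 5 are long non-coding RNAs. Between wor and sna it lists 5 genes, of which 1 codes for protein (CG4161) and 4 are long non-coding RNAs. The gene before esg is nht, a testis-specific relative of a TFIID subunit, and the gene after sna is Tim17b2, related to the mitochondrial import machinery. The peaks are on release 5 and positions were not carried from one release to the other, so no peak is assigned to any of these genes. The table served for names and order only.

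The span held a pair of high-scoring TBP peaks, each near one of its ends. Peak 2, at 15333110 to 15334882, scored 230.14 over 1773 bp. Peak 7, at 15477493 to 15478956, scored 157.13 over 1464 bp. The score is the authors' own, on an unstated scale, and serves only to rank peaks within the list. Peak 2 ranked 7th of the 1349 peaks of 2L and 51st of all 7769, and peak 7 ranked 40th on 2L and 206th in all. Of the higher-ranked 2L peaks, some belong to an array of 23 wide peaks elsewhere on the arm, and without that array the ranks on 2L were 5 for peak 2 and 17 for peak 7.

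**Figure D1:**
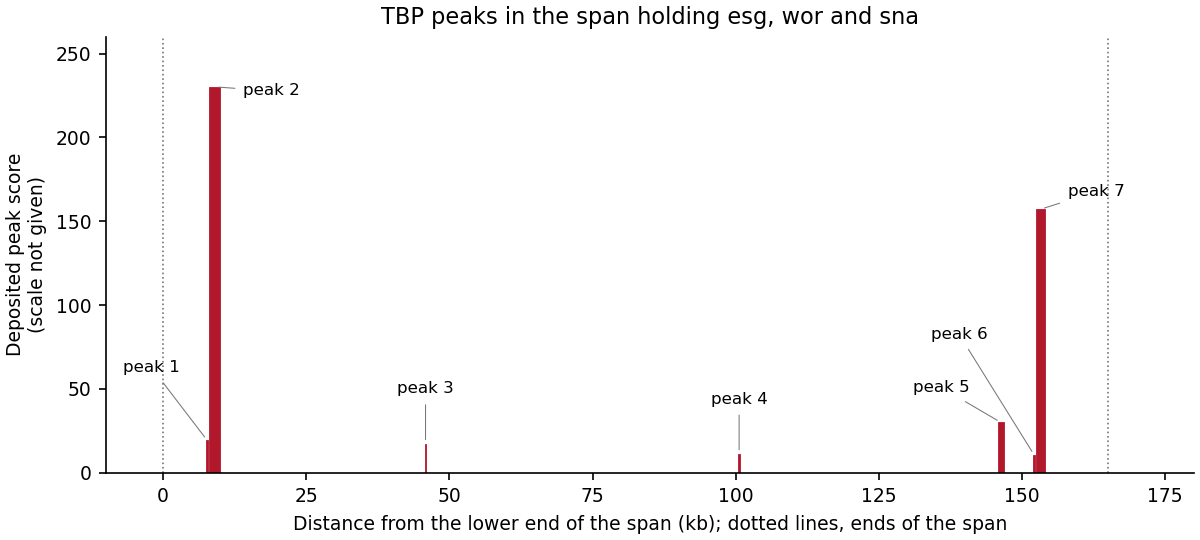
Deposited score (vertical axis, scale not given) of the 7 TBP peaks against distance in kb from the lower end of the span. Each bar is 1 peak drawn to its width. Peaks 2 and 7 stand at 230.14 and 157.13, and the other 5 lie between 10.67 and 30.06.

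The other 5 peaks were weak or of middling score. Peak 5, at 15470805 to 15471822, was the third highest, scoring 30.06 over 1018 bp, close to the 2L median score of 28.43. No peak of the span scored between this 30.06 and the 157.13 of peak 7, the lower of the high-scoring pair. Peak 1, at 15332530 to 15332880, scored 19.39 over 351 bp. Peak 3, at 15370706 to 15370973, scored 17.35 over 268 bp, and was the narrowest of the 7. Both were below the 2L median in score and in width, which was 732 bp on 2L. Peak 4, at 15425370 to 15425833, scored 11.24 over 464 bp. Peak 6, at 15476893 to 15477351, scored 10.67 over 459 bp and was the lowest of the 7, above 11.0% of 2L peaks.

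Counted by marks set after the scores had been seen, 2 of 7 peaks scored at or above 100, against 8.82% of all 2L peaks and 7.24% of those outside the array. Scores below 20 were found for 4 of 7 peaks, against 36.2% of 2L peaks. Widths below 500 bp were found for 4 of 7, against 33.1% on 2L. With 7 peaks these shares are coarse, and they are given as a description. The median score was 19.39 in the span and 28.43 on 2L, and the median width was 464 bp in the span and 732 bp on 2L. These medians depended on which peaks were counted. With peaks within 1 kb merged, the median score was 30.06 in the span and 35.51 on 2L, and the median width was 1018 bp in the span and 1014 bp on 2L. Among peaks at or above the 2L median score, of which the span had 3, the medians were 157.13 and 1464 bp in the span and 57.13 and 1267 bp on 2L. Peaks 2 and 7 together held 55.8% of the bases under peaks in the span.

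Wider peaks mostly had higher scores, in the span as on 2L (Spearman's rho = 0.71 across 7 peaks and 0.83 across 1349, given as descriptions, since a peak's score and width come from the same reads). The weakest peaks were wide for their scores. Peaks 4 and 6 were 1.51 and 1.54 times as wide as the median of the 50 other 2L peaks nearest in score, which was 306.5 bp for peak 4 and 297.5 bp for peak 6. Peak 5 was 1.46 times as wide as its counterparts, while peaks 1 and 3 were narrower than theirs, at 0.65 and 0.54 times. The high-scoring peak 2 was 0.48 times as wide as the 2L peaks nearest in score, but 1.08 times as wide once the 23 array peaks were left out, because those wide peaks have similar scores. Peak 7 was at 0.84 times, and at 0.86 times without the array.

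**Figure D2:**
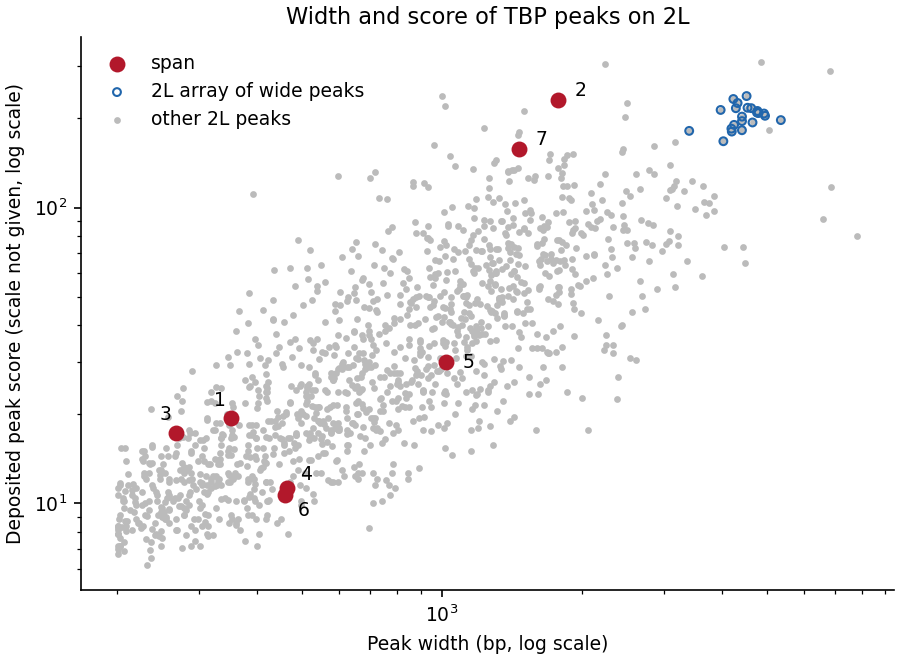
Width in bp (horizontal, log scale) and deposited score (vertical, log scale) of every 2L peak. Filled red points are the 7 peaks of the span, numbered along the arm, open blue points are the 23 array peaks and grey points are the other 2L peaks. Peaks 2 and 7 lie towards the high-score end of the cloud, with widths of 1773 and 1464 bp. Peaks 4 and 6 lie towards its low-score end, with 464 and 459 bp, and were wide for their scores.

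Each high-scoring peak had a weak peak directly beside it, in both cases on the side of lower coordinates. Peak 1 ended 229 bp before peak 2, and peak 6 ended 141 bp before peak 7. Scores in the first couple were 19.39 and 230.14, and in the second 10.67 and 157.13. Gaps under 1 kb made up 2 of the 6 gaps between neighbouring peaks of the span, against 25.6% of 2L gaps, so their number was close to that of the arm. Outside the array, 2L had 96 peaks at or above 100, peaks 2 and 7 included. Of these, 32 (33.3%) had a neighbour within 1 kb, and 16 (16.7%) had one scoring below 20. That weak neighbour lay on the lower-coordinate side in 9 cases, those of peaks 2 and 7 among them, and on the higher-coordinate side in 7. The arrangement was noticed in the positions and then counted. Whether such a couple is 1 bound region that the peak caller divided was not tested.

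Between the couples lay a stretch with few listed TBP peaks. From the end of peak 2 to the start of peak 6, 142 kb held 3 peaks, and these covered 1.23% of it. Set beside 159 other 2L stretches of that length laid end to end, 26 held fewer peaks, 5 held the same number and 128 held more, with a median of 7. In covered sequence, 24 of the 159 were below it and the median was 4.43%. The ends of this stretch were chosen by the peaks themselves, so the high-scoring peaks at its ends are left out by construction.

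Empty stretches made up most of the span. A stretch over 10 kb without a peak counted as empty, and there were 4, amounting to 146 kb or 88.6% of the span. Stretches were ended at the limits of the span here. Counted as on the whole arm, where a gap over 10 kb may cross a limit, 93.2% of the span lay in such gaps, against 82.9% of 2L. The first lay between peaks 2 and 3, from 15334883 to 15370705 (35.8 kb). The second and longest lay between peaks 3 and 4, from 15370974 to 15425369 (54.4 kb). The third lay between peaks 4 and 5, from 15425834 to 15470804 (45.0 kb). Between peak 7 and the upper end of the span, 11.0 kb were free. The 3 inner stretches ranked 160th, 99th and 121st among the 1348 gaps of 2L, longest first, and gaps over 30 kb were 3 of 6 in the span against 13.4% on 2L.

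Stretches of these lengths without a peak were nevertheless common along the arm. Windows of 35.8 kb placed at every position of 2L were empty in 34.6% of positions. For windows of 54.4 kb the share was 24.6%, and for 45.0 kb it was 29.1%. Windows laid end to end from the lower end of the span gave 34.2%, 23.5% and 30.3% in the same order. The remaining gap, of 5070 bp between peaks 5 and 6, was longer than 51.7% of 2L gaps. It exceeded by little the 5 kb that separated one run of peaks from the next, so the 7 peaks formed 5 runs, of 2, 1, 1, 1 and 2 peaks. On 2L, 26.7% of peaks stood alone by that measure, and in the span 3 of 7 did.

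**Figure D3:**
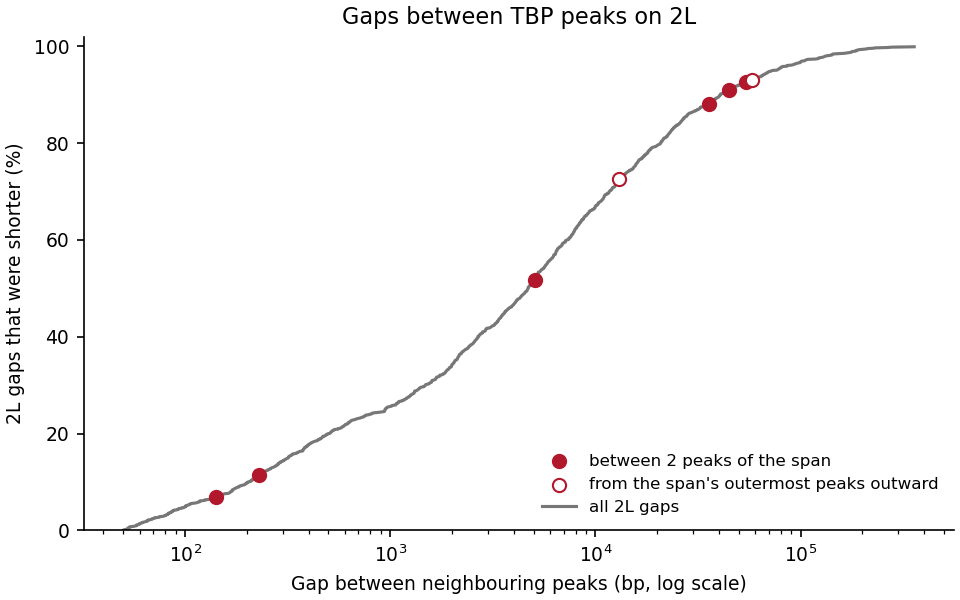
Length of each gap between neighbouring TBP peaks (horizontal, bp, log scale) and the percentage of the 1348 gaps on 2L that were shorter (vertical). The grey line is all 2L gaps, filled points are the 6 gaps inside the span and open points the gaps from peaks 1 and 7 to the next peaks outside. Filled points fall at 141 and 229 bp, near the middle at 5070 bp, and at 35.8 to 54.4 kb.

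Beside 137 other windows of the same length on 2L, the span was ordinary in number of peaks and high in its strongest peak. The windows were laid end to end from the span in both directions. The span's 7 peaks compared with a median of 9 per window (middle 50%, 5 to 14). Fewer peaks were found in 49 windows (35.8%, exact Clopper-Pearson 95% interval 27.8% to 44.4%), the same number in 11 and more in 77. The intervals here cover counting of windows only, and windows are not replicates. Peaks covered 3.51% of the span, against a median of 4.44% per window, and 38.0% of windows (29.8% to 46.6%) were less covered. The longest peak-free stretch of the span, at 54.4 kb, was shorter than the median of 70.2 kb, and 32.1% of windows (24.4% to 40.6%) had a shorter one. This turned round when weak peaks were left out. With only peaks at or above the 2L median score, the longest free stretch of the span was 135922 bp and 84.7% of windows had a shorter one.

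The highest score set the span apart from most windows in rank. This follows from the rank of peak 2 alone, 7th of 1349 on 2L, and is not a separate result. A score of 230.14 was above the highest score of 133 of the 137 windows (97.1%, 92.7% to 99.2%), where the median of the highest scores was 89.78. All 4 windows with a higher one reached between 238.88 and 310.61. Among the 60 windows with 7 or fewer peaks, the highest score anywhere was 225.24, and 11 of the 60 held any peak at or above 100. The limit of 7 was the span's own count, and windows without any peak were among the 60. Among the 11 windows with exactly 7 peaks, highest scores ran from 32.15 to 144.86, with a median of 75.54. In those 11 the longest peak-free stretch ran from 57.4 to 142 kb, longer in each than the 54.4 kb of the span.

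Few windows as sparse as the span held 2 high-scoring peaks, but both limits used here were taken from the span itself. Of the 137 windows, 28 held 2 or more peaks at or above 100, and these had a median of 13.5 peaks each. In 2 of the 28 the count of peaks was 7 or lower, which is 2 of the 60 windows that sparse. The limit of 7 is the span's own count, and the mark of 100 was set after the scores had been seen. Some of the 60 windows had fewer than 2 peaks and could not hold such a pair. The low share is thus partly fixed in advance and is given as a description.

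**Figure D4:**
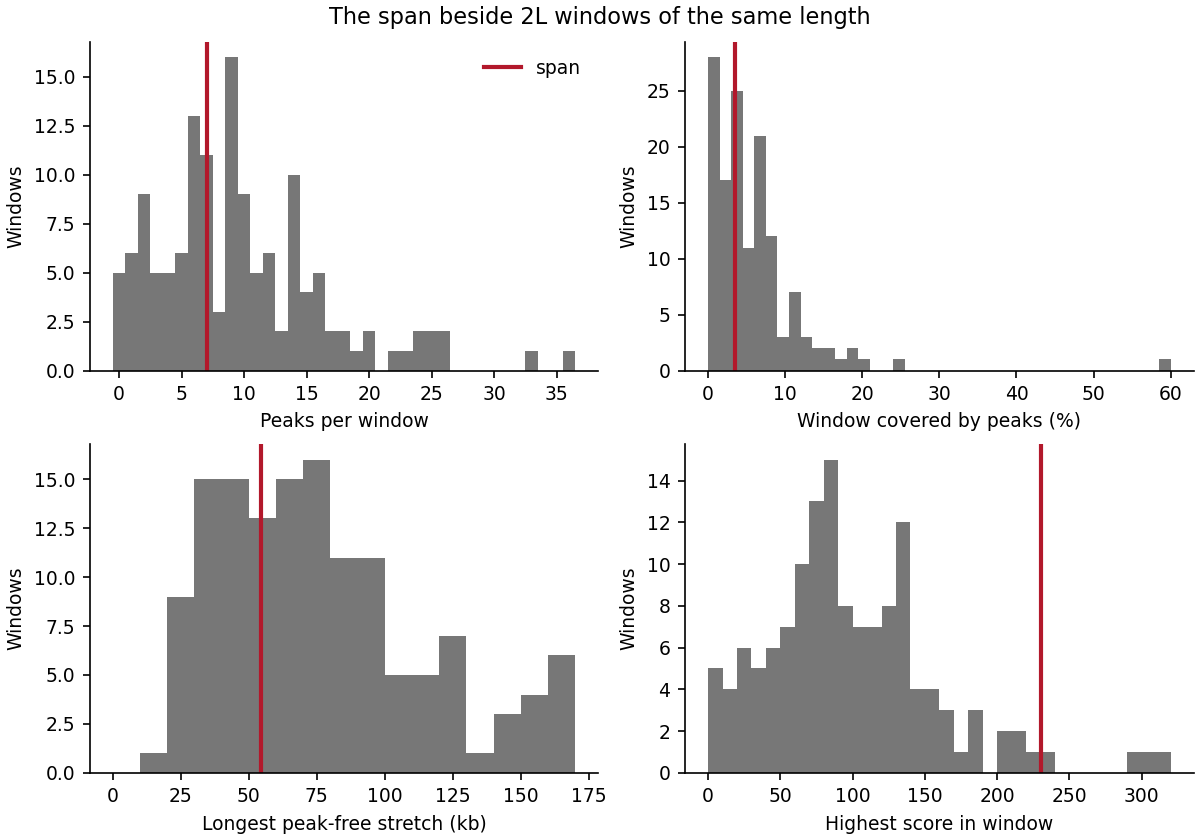
Histograms of 137 windows of 2L of the same length as the span, for number of peaks, percentage covered by peaks, longest peak-free stretch in kb and highest deposited score. Vertical axes count windows and the red line marks the span. The line lies below the middle for peaks (7), covered sequence (3.51%) and longest free stretch (54.4 kb), and near the upper end for highest score (230.14).

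The sequence around the span held few peaks, and none within 500 kb scored as high as peak 7. The stretch of equal length just below it held 7 peaks too, but the highest scored 49.7 and peaks covered 2.65%. The stretch of equal length just above held 2 peaks, the higher at 51.21, and 1.03% was covered. Within 500 kb on each side there were 30 peaks outside the span, with a median score of 22.15 and a highest of 126.03. The whole of 2L had 58.8 peaks per Mb. Scores of 100 or more were reached by 2 of the 30, against 8.82% of all 2L peaks and 7.24% outside the array, so that share was close to the arm's. The nearest peak at or above 100 was 257 kb below the span, at 15067089 to 15068414, with a score of 107.41. Above the span the nearest was 796 kb away, at 16285796 to 16288661, with a score of 161.53. Towards lower coordinates, the nearest peak scoring at least as high as peak 7 was 2080 kb away, at 13244343 to 13245359, with a score of 219.56. Outside the array, 96 peaks reached 100 over the 22.9 Mb of 2L, and peak 7 ranked 17th. Peaks this strong thus lie far apart on average, and these distances do not mark the span as unusual.

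The limits of the span did not fall inside a peak. The outermost peak inside at the lower end, peak 1, began 58.2 kb after the last peak below, which lies at 15273161 to 15274287 with a score of 23.74. At the upper end, peak 7 was followed after 13.1 kb by a peak just outside, which lies at 15492050 to 15492252 and scored 11.52 over 203 bp. The next peak above, at 15498900 to 15500397, scored 51.21. After it came 231 kb without a peak, the fourth longest gap of 2L, which lies wholly outside the span.

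**Figure D5:**
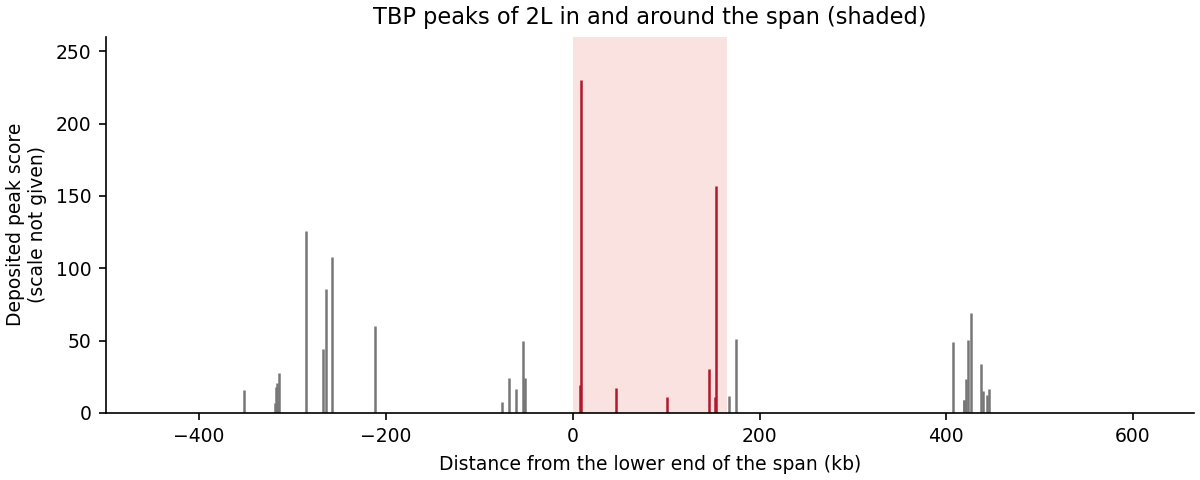
Deposited score (vertical, scale not given) of 2L peaks from 500 kb below to 500 kb above the span, by distance in kb from its lower end. Red lines are the 7 peaks of the span, which is shaded, and grey lines the 30 peaks around it. No grey line exceeds 126.03, while peaks 2 and 7 reach 230.14 and 157.13.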

How the data were processed

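Peaks came from 1 list in GFF version 3 for the whole series, with positions on FlyBase release 5 per the file headers. The source field names MACS. BWA, MACS2, CASAVA (1.7.0.2, 1.7.0.3) and the build BDGP5 appear in the submitters' processing notes, without roles. The threshold, the handling of duplicate reads and any pooling of replicates are not stated there, and all of them affect which weak peaks are listed. The authors deposited a score per peak without a scale. Start and end are 1-based. Depth is unknown, so no interval or detection limit per peak was given. Per the labels' protocols, chromatin was cross-linked in 1.8% formaldehyde for 15 min.

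Widths, gaps, covered bases, runs (gaps of at most 5 kb), empty stretches (over 10 kb) and same-length windows from the first to the last 2L peak (22.9 Mb) were computed with Python 3.11.15, numpy 2.4.6, pandas 2.3.3, scipy 1.17.1 and matplotlib 3.10.9, after the functions had been tested on simulated data. All 7 peaks were named, as the naming rule set for up to 30. The array is the longest series of 2L peaks, each 3000 bp or wider, whose starts follow within 15 kb. No test over samples was possible. The members were chosen with earlier results of these data known. Promoter motifs and proteins, which had been planned, were not analysed here.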

Additional observations from a re-analysis of the deposited data

How the results depend on the processing

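No paired analysis was possible because the list gives no values per library, which also kept single replicates from being left out. Of 52 alternatives over 12 results, 44 stayed within 1.5 times (counts) or within the 95% interval of the value in the report, or, for the longest free stretch, equal to it. With 7 peaks and 6 gaps the intervals of the medians are wide, running from the lowest to the highest value in the span. The median score or width of any subset of these peaks thus stayed by construction, as 157.13 did against 19.39. Dropping weak peaks could not change the span's highest score or its rank among windows. The count of 44 therefore does not measure how stable the results are. Counting peaks by their centre or only whole peaks changed no value, and could not, since all 7 peaks lie wholly inside the span. Keeping only peaks at or above the 2L median score of 28.43 left 3 peaks, 2.58% of the span covered, 3 runs, 2 empty stretches, a median gap of 70796 bp (against 20446.5 bp) and a longest free stretch of 135922 bp. Then 84.7% of windows had a shorter longest free stretch, against 32.1% with all peaks, so how empty the middle of the span looks depends on the weak peaks 3 and 4. The median score and width were then 157.13 and 1464 bp. Merging peaks within 1 kb gave 5 peaks with a median score of 30.06 (against 19.39), a median width of 1018 bp (against 464 bp), a median gap of 40397 bp and a covered share of 3.74%. Over all alternatives for the windows (sliding by 1 kb, shifted along the arm, without the last 2 Mb of 2L, on 5 long arms, stronger or merged peaks, and, for the highest score, without the array), the share with fewer peaks ran from 29.2% to 37.8% and the share with a lower highest score from 96.3% to 97.8%. Windows without the array, empty windows at every position, whole gaps crossing the span's limits and width ratios without the array were chosen after seeing the data. So were the comparisons limited to windows with at most the span's 7 peaks or to peaks at or above 100. Unknown depth and threshold limit every statement on weak or missing peaks.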
